A study of Mus musculus with 12 samples.

Results

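The cytosolic heat shock genes were followed in peritoneal macrophages of female mice, phagocytes that patrol the abdominal cavity. The set holds 10 listed genes, all found among the 24562 genes of the count table: Hspa1a, Hspa1b, Hspa8, Hsph1, Dnajb1, Bag3, Hsp90aa1, Hsp90ab1, Hspb1 and Hsf1. They were chosen by name as heat shock genes, and each is represented by its RefSeq transcript with the highest mean count. All 10 passed the filter on low counts.

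The animals ate either chow or a high fat diet (HFD), and lipopolysaccharide (LPS), a bacterial cell wall component, had acted for 0 h or 24 h. With 3 libraries each, the 4 groups are named here by diet and hours of LPS, from chow 0 h to HFD 24 h. The sources used here give no strain, genotype, age, length of feeding or LPS dose. Since cells held for 24 h without LPS are not among the groups, LPS and elapsed time cannot be told apart. Separate animals behind the libraries of a group are not stated, and p-values then reflect only how far these samples scatter, which may be technical.

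Heat shock proteins are molecular chaperones, which bind unfolded stretches of other proteins and keep them from clumping. HSP70 proteins bind and release clients in a cycle driven by ATP, J-domain proteins such as the product of Dnajb1 deliver the clients, and nucleotide exchange factors such as the products of Hsph1 and Bag3 let them go. HSP90 proteins finish the folding of kinases and steroid receptors, and small heat shock proteins hold clients without using ATP. Heat or other damage to proteins releases the transcription factor HSF1 from its chaperones, and HSF1 then switches on genes that carry heat shock elements, repeats of the letters GAA and TTC. In macrophages, HSP90 is needed for the stability of several signalling proteins downstream of Toll-like receptors.

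Depth set how much the low genes can show. Total counts per library ran from 2360244 in HFD 0 h replicate 3 to 20688308, with the next lowest at 9135057, and 3 counts equalled 0.145 to 1.27 CPM (counts scaled to a common library total). HFD 0 h replicate 3 also stood alone on the second principal component, at -82.2. Only 4 libraries carry a tag for lane 8 in their labels, the 3 of chow 24 h and HFD 24 h replicate 1. Within chow, LPS and this lane cannot be told apart. Between diets at 24 h the tag goes largely with chow, since HFD 24 h replicates 2 and 3 lack it. As a covariate, the tag is estimated only within HFD 24 h, from replicate 1 against replicates 2 and 3. The summed macrophage markers were high in every library, with the 10 genes between 14201 and 15774 CPM at 0 h and between 10113 and 12728 CPM at 24 h. Lyz2 and Cd68 held most of each group's sum, at group means of 4477 to 9914 CPM and 2799 to 3059 CPM. Not all markers were high, with Gata6 at 4.25 to 17.7 CPM and Timd4 at 5.57 CPM or less. Only Timd4 was at 0, in 1 library. Stromal and mesothelial markers were present too, with 16 genes summing to between 772 and 3220 CPM, led by Col1a1.

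Hspa1a and Hspa1b encode the stress-inducible HSP70 proteins and lie next to each other on the minus strand of chromosome 17, each in 1 exon (GRCm38.p6, 34969359 to 34972156 for Hspa1a and 34956429 to 34959238 for Hspa1b). Their upstream sequences are shown because they are nearly the same in both genes and hold a run of letters of the heat shock element type. The 250 bases before each start site, from RefSeq, build GRCm38.p6, minus strand, are chr17:34972157-34972406 for Hspa1a and chr17:34959239-34959488 for Hspa1b. Capitals mark GAANNTTC.
Hspa1a: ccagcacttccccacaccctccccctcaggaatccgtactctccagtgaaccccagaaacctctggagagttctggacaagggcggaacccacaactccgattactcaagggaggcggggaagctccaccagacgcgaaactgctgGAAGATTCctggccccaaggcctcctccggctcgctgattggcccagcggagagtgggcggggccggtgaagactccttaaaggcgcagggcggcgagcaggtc
Hspa1b: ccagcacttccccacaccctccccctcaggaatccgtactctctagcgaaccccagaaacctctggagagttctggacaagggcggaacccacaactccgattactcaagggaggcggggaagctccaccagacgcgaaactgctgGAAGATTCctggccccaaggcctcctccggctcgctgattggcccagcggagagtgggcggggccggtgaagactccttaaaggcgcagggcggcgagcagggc

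Over the 300 bases from 250 before to 50 after the start site, 296 were identical (98.67%). Counted from 1 at the 5′ end, with the base of Hspa1a first, the 4 differences are C44T, T47C, T249G and C276T, of which the last lies beyond the printed bases. Both genes hold GAAGATTC, starting at position -104 relative to the start site. RefSeq windows were at hand for 6 of the 10 genes (those of Hspa8, Hsp90aa1, Hsp90ab1 and Hsf1 were not), and the 8-letter motifs GAANNTTC and TTCNNGAA, each its own reverse complement, were searched there. GAANNTTC occurred in 7.86% and TTCNNGAA in 8.52% of 32851 such windows, and either of them in 15.1%.

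Hspb1 holds GAANNTTC at positions -117 and -97 relative to its start, and Hsph1 holds TTCNNGAA at -54 or -33, by the start site used. The 60 bases around them are chr5:135887776-135887835 on the plus strand for Hspb1 and chr5:149636336-149636395 on the minus strand for Hsph1, with the motifs in capitals.
Hspb1: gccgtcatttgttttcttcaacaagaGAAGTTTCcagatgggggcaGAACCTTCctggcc
Hsph1: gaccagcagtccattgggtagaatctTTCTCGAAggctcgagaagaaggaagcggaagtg

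Downstream of its start, Hsph1 also holds the longer form in which NNTTC directly follows TTCNNGAA, 13 letters that overlap both 8-letter motifs. This form or its reverse complement was found in 0.603% of all windows. Bag3 holds GAANNTTC 43 bases after its start, and neither Dnajb1 window holds an 8-letter motif. A match is a run of letters and not a measured binding site.

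In chow, Hspa1a and Hspa1b were low before LPS and rose by 24 h in every library. Hspa1a stood at 1.98, 1.95 and 1.58 CPM in the 3 chow 0 h libraries and at 8.44, 7.45 and 5.83 CPM in the 3 chow 24 h libraries. Every 24 h library lay above every 0 h library. The log2 fold change was 1.97 ± 0.40 (SE), or 3.92-fold, with an edgeR adjusted p of 0.0013.

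Hspa1b went from 0.238, 0.811 and 0.748 CPM to 7.02, 5.47 and 3.34 CPM, again without overlap between the groups. Its log2 fold change was 3.12 ± 0.62, or 8.70-fold (edgeR adjusted p = 0.00105), resting on 22 counts over the 0 h libraries and 206 over the 24 h libraries. Both genes kept the call when any 1 library was left out, with adjusted p of at most 0.00822 for Hspa1a and 0.00656 for Hspa1b. With the lane tag as a covariate both calls ended, at log2 fold changes of 1.83 ± 0.76 (edgeR adjusted p = 0.155) for Hspa1a and 2.33 ± 1.11 (0.221) for Hspa1b.

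In HFD the levels after LPS were lower and the libraries before LPS were scattered. Hspa1a measured 1.77, 0.557 and 3.60 CPM at 0 h, the last from 8 counts in the shallow replicate 3, and 2.61, 1.74 and 2.96 CPM at 24 h. The groups overlapped, and the log2 fold change of 0.62 ± 0.47 did not pass (edgeR adjusted p = 0.382). That value rested on single libraries, at 0.07 without HFD 0 h replicate 2 and 1.05 without replicate 3.

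Hspa1b in HFD was counted 1, 2 and 3 times at 0 h and 22, 7 and 34 times at 24 h, which is 0.104, 0.223 and 1.35 CPM against 1.74, 0.392 and 1.57 CPM. Here too the groups overlapped, through the 1.35 CPM of the shallow 0 h library. The log2 fold change was 1.92 ± 0.85 (edgeR adjusted p = 0.114). It passed without HFD 0 h replicate 3, at 2.85 ± 0.91 (0.0333), and without HFD 24 h replicate 2, at 2.38 ± 0.77 (0.0377).

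Reads of Hspa1a and Hspa1b may not have been assigned cleanly, since 58.81% of the 50-base words in the Hspa1a transcript also occur in that of Hspa1b (GENCODE vM21, with the read length unknown). The sum of both genes avoids that split. It was 2.22, 2.76 and 2.33 CPM in chow 0 h and 15.5, 12.9 and 9.17 CPM in chow 24 h, with no overlap. In HFD it was 1.87, 0.779 and 4.95 CPM at 0 h and 4.35, 2.13 and 4.53 CPM at 24 h, so that a 0 h library held the highest value. That value rests on 11 counts in the shallow HFD 0 h replicate 3, against 38 to 98 counts in the HFD 24 h libraries.

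With the sum in place of both genes, the log2 fold change with LPS was 2.36 ± 0.41 in chow, or 5.12-fold (edgeR adjusted p = 0.000274), and 0.92 ± 0.48 in HFD (0.184). An exact two-sided permutation test of these sums over libraries gave p = 0.1 in chow, the smallest value that 3 libraries against 3 can give. In HFD this permutation test gave p = 0.6, with the shallow 0 h library weighted like the others. Hspa1b contributed 24.4% of the summed counts in chow 0 h (exact 95% interval 16 to 34.6, counting error only) and 42.0% in chow 24 h (37.5 to 46.5). The corresponding shares in HFD were 16.7% (6.37 to 32.8) and 33.0% (26.4 to 40.1). Over libraries they ran from 10.7% to 32.1% in chow 0 h and from 36.4% to 45.4% in chow 24 h, without overlap, whereas those of HFD overlapped.

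**Figure D1:**
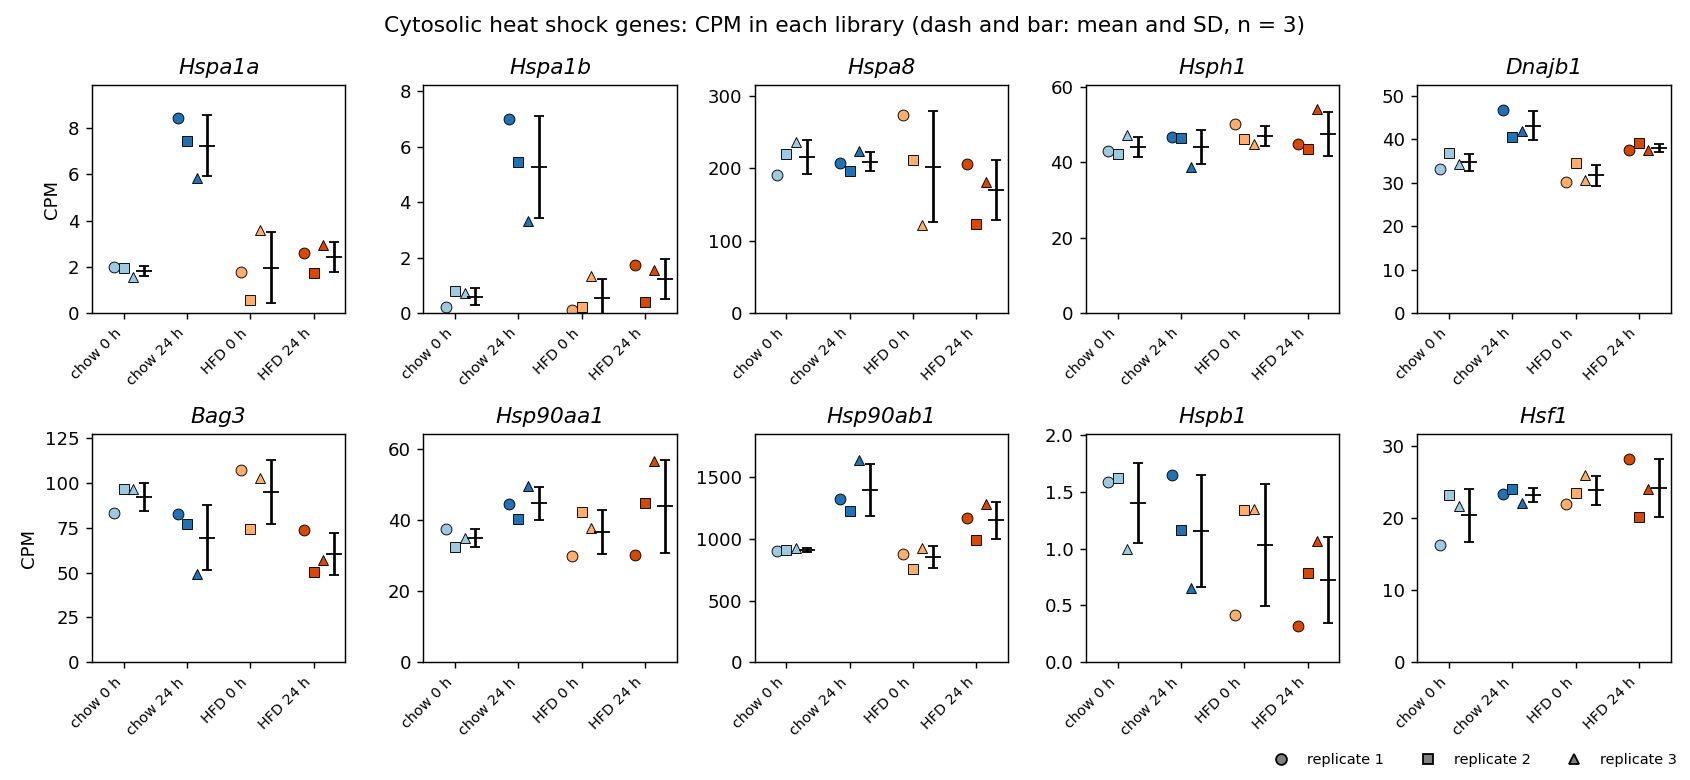
Level of each heat shock gene in CPM (vertical axes, starting at 0) in the 4 groups, with 1 point per library and the mean with its SD (n = 3) beside them. Hspa1a and Hspa1b stand highest in the chow 24 h libraries, at 5.83 to 8.44 and 3.34 to 7.02 CPM, and Hsp90ab1 is higher at 24 h than at 0 h in both diets.

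After 24 h of LPS, the inducible genes were the only members of the set, with Dnajb1, whose levels in HFD and chow did not overlap. Hspa1a lay between 1.74 and 2.96 CPM in HFD 24 h against 5.83 to 8.44 CPM in chow 24 h, a log2 fold change of -1.57 ± 0.39 (2.96-fold lower). It ranked 37 among 12641 genes by unadjusted p and did not pass after adjustment (edgeR adjusted p = 0.292). Hspa1b lay between 0.392 and 1.74 CPM in HFD against 3.34 to 7.02 CPM in chow, with -2.10 ± 0.56 (4.28-fold lower, rank 65, edgeR adjusted p = 0.325). DESeq2 called Hspa1a (log2 fold change -1.57 ± 0.40, adjusted p = 0.0289) and did not call Hspa1b (0.0936).

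Their sum differed by -1.77 ± 0.38 on the log2 scale (3.41-fold lower in HFD, edgeR adjusted p = 0.179, exact two-sided permutation p = 0.1, again the smallest possible). Before LPS the sum differed by -0.33 ± 0.50 (edgeR adjusted p = 0.984). The difference between the LPS responses, HFD minus chow, was -1.44 ± 0.63 for the sum, with an edgeR adjusted p of 1, so a difference between the responses was not shown. With the lane tag as a covariate, where diet at 24 h compares HFD 24 h replicate 1 with the chow libraries, Hspa1a stood at -1.47 ± 0.61 and Hspa1b at -1.59 ± 0.85 (edgeR adjusted p = 0.999 for both).

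Markers of other cells moved beside these values. The 16 stromal and mesothelial markers summed to 2658, 1460 and 856 CPM in chow 0 h, 3220, 2269 and 1110 CPM in chow 24 h, 772, 1052 and 1487 CPM in HFD 0 h, and 1180, 1176 and 1064 CPM in HFD 24 h. By edgeR, 1 of the 13 tested rose with LPS in chow, Pdgfrb, and 2 fell, Lrrn4 (log2 fold change -3.08) and Upk3b (-1.90). In HFD 3 were called, all lower, Lrrn4 (-4.26), Upk3b (-2.87) and Krt8 (-2.71). Lrrn4, Upk3b and Krt8 were at 8.54 CPM or less in every library, so the sum hardly reflects them. Between diets at 24 h their median log2 fold change was -0.85, and 0 were called by edgeR, DESeq2 or limma-voom. An unadjusted edgeR p under 0.05 was found there for 5 of them, beside 993 of all 12641 genes. Col1a1 was at 309 CPM or more everywhere, while Lum was at 0 in 3 libraries and Gpm6a in 2.

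Within chow 24 h, the libraries with a higher sum of these markers also had more Hspa1a and Hspa1b. Chow 24 h replicate 3, whose marker sum of 1110 CPM lies within the HFD 24 h range, held 9.17 CPM of the summed inducible genes against 2.13 to 4.53 CPM in HFD 24 h. Chow 0 h replicate 1, with 2658 CPM of markers, held 2.22 CPM. With the marker level as a covariate, an alternative added after the data were seen, Hspa1a rose with LPS in chow by 1.84 ± 0.39 (edgeR adjusted p = 0.00153) and Hspa1b by 2.92 ± 0.65 (0.00202). The diet values at 24 h were -1.30 ± 0.42 and -1.80 ± 0.65, with 0 members called. The libraries named here are single samples, and the part of stromal cells in these values was not tested.

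**Figure D2:**
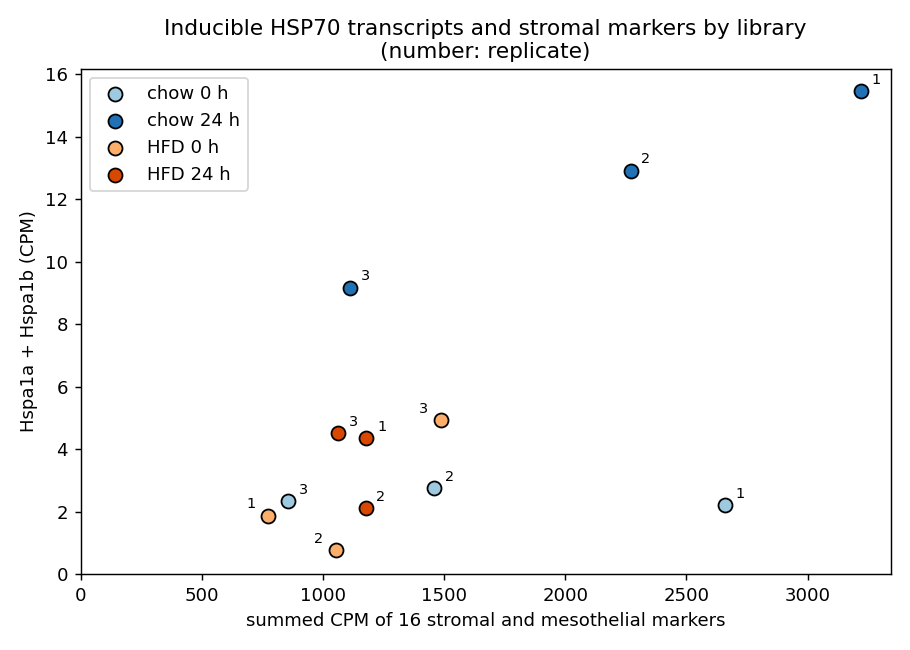
Summed CPM of 16 stromal and mesothelial markers (horizontal axis) against the sum of Hspa1a and Hspa1b in CPM (vertical axis), with 1 point per library and its replicate number. The 3 chow 24 h libraries lie above all others at 9.17 to 15.5 CPM, with 1110 to 3220 CPM of markers.

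The 6 dendritic cell markers summed to 27.5 to 36.8 CPM in chow 24 h and 15.9 to 18.3 CPM in HFD 24 h, most of it Ccr7, and to 16.9 to 23.5 CPM and 5.40 to 13.6 CPM before LPS. Xcr1 was at 0 in 1 library and Cd209a in 8. The 8 neutrophil markers summed to 37.6 to 67.7 CPM in chow 24 h and 23.5 to 37.5 CPM in HFD 24 h, with Ly6g at 0 in 8 libraries and S100a9 in 11. Immediate early genes, which handling of cells can raise, summed to 1797 to 2205 CPM and 1740 to 1957 CPM, with Fosb at 0 in 3 libraries. Of the tested genes of these lists (3, 3 and 14), 0 were called between the 24 h groups by edgeR, DESeq2 or limma-voom. An unadjusted edgeR p under 0.05 was found for 2, 1 and 3 of them, beside 993 of all 12641 genes.

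Several of these sums also moved with LPS in chow, where Hspa1a and Hspa1b rose. From 0 h to 24 h the macrophage sum went from 14397 to 15699 CPM down to 10113 to 11376 CPM, with 4 of 10 genes called higher and 1 lower. The gene called lower was Lyz2, the largest part of the sum, which went from a mean of 9831 to 4477 CPM. The fall of the sum was that of Lyz2 and not of the markers as a set. Neutrophil markers went from 19.2 to 22.4 CPM up to 37.6 to 67.7 CPM, with 1 of 3 tested genes called higher and 1 lower. The 5 endothelial markers went from 13.4 to 17.8 CPM up to 20.7 to 28.2 CPM, with 1 of 3 tested called higher and Tek at 0 in all 12 libraries. B cell markers went from 155 to 253 CPM down to 79.5 to 123 CPM, with 1 of 6 tested called lower, and mast cell and eosinophil markers from 39.0 to 48.8 CPM down to 16.6 to 24.4 CPM, with 1 of 5 called lower. Among dendritic cell markers 1 of 3 tested was called higher. Sums of T and NK cell markers overlapped. The part of any of these cells or of early gene induction in the Hspa1a and Hspa1b values was not tested. In bulk samples, fewer cells of a type and less RNA per cell cannot be told apart.

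The constitutive HSP70 gene Hspa8 (chromosome 9, 40801276 to 40805202) serves folding in unstressed cells and was far more abundant than the inducible pair. It stood at 190, 220 and 236 CPM in chow 0 h and 208, 197 and 224 CPM in chow 24 h. In HFD it stood at 273, 212 and 121 CPM at 0 h and 206, 124 and 181 CPM at 24 h. The groups overlapped in both diets, with log2 fold changes of -0.04 ± 0.23 in chow and -0.27 ± 0.23 in HFD (edgeR adjusted p = 0.922 and 0.45). The value of 121 CPM belongs to the shallow library, and reads of Hspa8 are uncertain, since 73.22% of its 50-base words recur in transcripts of 11 other genes.

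Hsph1, the HSP110 exchange factor (chromosome 5, 149616843 to 149636498), was the steadiest member. Its levels ran from 38.8 to 54.3 CPM over all 12 libraries. The log2 fold change was -0.01 ± 0.14 in chow and 0.01 ± 0.14 in HFD (edgeR adjusted p = 0.98 and 0.976). None of its 50-base words occurs in another gene's transcript.

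Dnajb1, the J-domain partner that feeds clients to HSP70 (chromosome 8, 83608175 to 83612653), was slightly higher after LPS. It measured 33.1, 36.8 and 34.3 CPM in chow 0 h and 46.9, 40.6 and 42.0 CPM in chow 24 h. In HFD it measured 30.2, 34.5 and 30.6 CPM at 0 h and 37.6, 39.2 and 37.6 CPM at 24 h. The groups did not overlap in either diet, while the log2 fold changes of 0.31 ± 0.13 and 0.26 ± 0.13 missed the threshold (edgeR adjusted p = 0.0802 and 0.172). In chow it passed with DESeq2 (0.32 ± 0.13, adjusted p = 0.0452) and when its 2 transcript rows were added (0.37 ± 0.12, edgeR adjusted p = 0.039).

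Bag3, which releases clients from HSP70 and steers them to selective autophagy (chromosome 7, 128523583 to 128546981), was the only member called lower. It went from 107, 74.4 and 103 CPM in HFD 0 h to 73.4, 50.3 and 57.3 CPM in HFD 24 h, without overlap, although the highest 24 h and the lowest 0 h library were close. The log2 fold change was -0.65 ± 0.20, or 1.57-fold lower (edgeR adjusted p = 0.0238). Leaving out single libraries ended the call in 4 cases, HFD 0 h replicate 1 (edgeR adjusted p = 0.102) and replicate 3 (0.0671), and HFD 24 h replicate 2 (0.107) and replicate 3 (0.0807).

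In chow Bag3 went from 82.9, 96.3 and 96.3 CPM to 82.7, 76.8 and 48.9 CPM, with most of the difference in chow 24 h replicate 3. The log2 fold change of -0.40 ± 0.20 did not pass (edgeR adjusted p = 0.148). The difference between the diets' responses was not shown either (edgeR adjusted p = 1). Bag3 shares no 50-base word with another gene.

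Hsp90ab1, the constitutive cytosolic HSP90 (chromosome 17, 45567778 to 45573261), was the member called with LPS in both diets. It rose from 899, 905 and 926 CPM to 1320, 1225 and 1634 CPM in chow, a log2 fold change of 0.61 ± 0.14, or 1.53-fold (edgeR adjusted p = 0.0032). In HFD it rose from 877, 751 and 928 CPM to 1171, 988 and 1283 CPM, with 0.43 ± 0.14, or 1.35-fold (0.0336). The groups did not overlap in either diet.

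The chow call of Hsp90ab1 ended with the lane tag as a covariate, at 0.57 ± 0.26 (edgeR adjusted p = 0.202), and in no other alternative. The HFD call was near the threshold and ended with upper-quartile scaling (0.0697), with only the HFD libraries (0.0936) and with the lane tag (0.077). Of the libraries left out in turn, 5 ended it: chow 0 h replicate 2 (0.0506), HFD 0 h replicate 1 (0.0662) and replicate 2 (0.116), and HFD 24 h replicate 1 (0.0695) and replicate 3 (0.119). At 24 h Hsp90ab1 stood -0.28 ± 0.14 lower in HFD than in chow, with overlap (0.647).

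Hsp90aa1, the more inducible HSP90 (chromosome 12, 110691036 to 110696395), was measured far lower. It stood at 37.3, 32.3 and 35.0 CPM in chow 0 h and 44.3, 40.1 and 49.5 CPM in chow 24 h, without overlap, with a log2 fold change of 0.36 ± 0.19 (edgeR adjusted p = 0.198). In HFD it stood at 29.97, 42.2 and 37.8 CPM and at 30.2, 44.7 and 56.4 CPM, with 0.27 ± 0.20 (0.371). The low 24 h value belongs to HFD 24 h replicate 1, the library with the lane tag. With the tag as a covariate, Hsp90aa1 was the only member called with LPS in chow, at 1.10 ± 0.28 (0.0177), and it also passed with only the chow libraries (0.35 ± 0.12, 0.0441). Of its 50-base words 58.51% occur in 4 other genes, so its level is uncertain.

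Hspb1, the small heat shock protein HSP25 (chromosome 5, 135887919 to 135889563), was close to the floor. It ranged from 0.998 to 1.62 CPM in chow 0 h, 0.655 to 1.64 in chow 24 h, 0.416 to 1.35 in HFD 0 h and 0.316 to 1.06 in HFD 24 h, from 52, 45, 19 and 41 counts. The log2 fold changes of -0.29 ± 0.55 and -0.34 ± 0.64 with LPS were within the spread, and a change was not detectable at this depth. Of its words 58.9% recur in a pseudogene, Hsp25-ps1.

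Hsf1, the regulator of the set (chromosome 15, 76477362 to 76501155), is controlled largely as a protein, and its transcript was steady. It ranged from 16.3 to 23.3 CPM in chow 0 h, 22.1 to 24.1 in chow 24 h, 21.96 to 26.1 in HFD 0 h and 20.2 to 28.2 in HFD 24 h. Log2 fold changes with LPS were 0.18 ± 0.17 in chow and 0.03 ± 0.18 in HFD (edgeR adjusted p = 0.489 and 0.923).

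Counted together, 3 of the 10 genes rose with LPS in chow and 0 fell, with 2 of 9 called when Hspa1a and Hspa1b were summed. The share of all 12641 tested genes called in that comparison was 26.6%, with 13.7% higher and 12.9% lower, so the members' share of 30% was near the background. In HFD 1 rose and 1 fell, against 24.6% of all genes called, 12.7% higher and 12% lower. The median log2 fold change of the members was 0.25 in chow and 0.14 in HFD, beside medians of 0.0001 and -0.002 over all genes.

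Groups did not overlap for 6 members in chow, 5 of them higher at 24 h and 1, Bag3, lower, beside 45.5% of all genes (22.5% higher, 22.9% lower). Bag3 was separated narrowly, by 82.7 CPM in its highest 24 h library against 82.9 CPM in its lowest 0 h library. Hspa1a and Hspa1b count as separate members here, although their reads may not have been assigned cleanly. In HFD this held for 3 members, Hsp90ab1, Dnajb1 and Bag3, beside 35.4% of all genes (18.2% higher, 17.2% lower). Hsp90ab1 was called higher in both diets. The LPS comparisons of the diets share no libraries, but they share the estimate of spread from the fit to all libraries. With only the HFD libraries its HFD call ended. The share of all genes called higher in both diets was not computed.

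Between diets no member was called by edgeR. Before LPS 0.087% of all genes were called, and for the members adjusted p lay between 0.953 and 0.998, none had an unadjusted p under 0.05, none was called by DESeq2 or limma-voom and all groups overlapped, while 12.2% of all genes did not overlap (5.87% with HFD higher, 6.35% with HFD lower). Of all 12641 genes, 778 had an unadjusted edgeR p under 0.05 before LPS, DESeq2 called 66 and limma-voom 10. At 24 h 0.00791% of all genes were called, which is 1 gene, Mamdc2. Of the members 2 had an unadjusted p under 0.05, DESeq2 called 1 and limma-voom 0, beside 993, 41 and 11 of all 12641 genes. The 3 members whose groups did not overlap, Hspa1a, Hspa1b and Dnajb1, were all lower in HFD, beside 12.3% of all genes that did not overlap (6.28% with HFD higher, 5.98% with HFD lower). The median of the members was -0.24, beside 0.003 over all genes.

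In the test of the difference between the LPS responses 0% of all genes and none of the members passed. The smallest p among members was that of Hspa1a (-1.35 ± 0.63), the only one under 0.05 before adjustment, beside 297 of all 12641 genes. DESeq2 and limma-voom called 0 members, and DESeq2 gave no adjusted p for Hspa1a and Hspa1b.

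**Figure D3:**
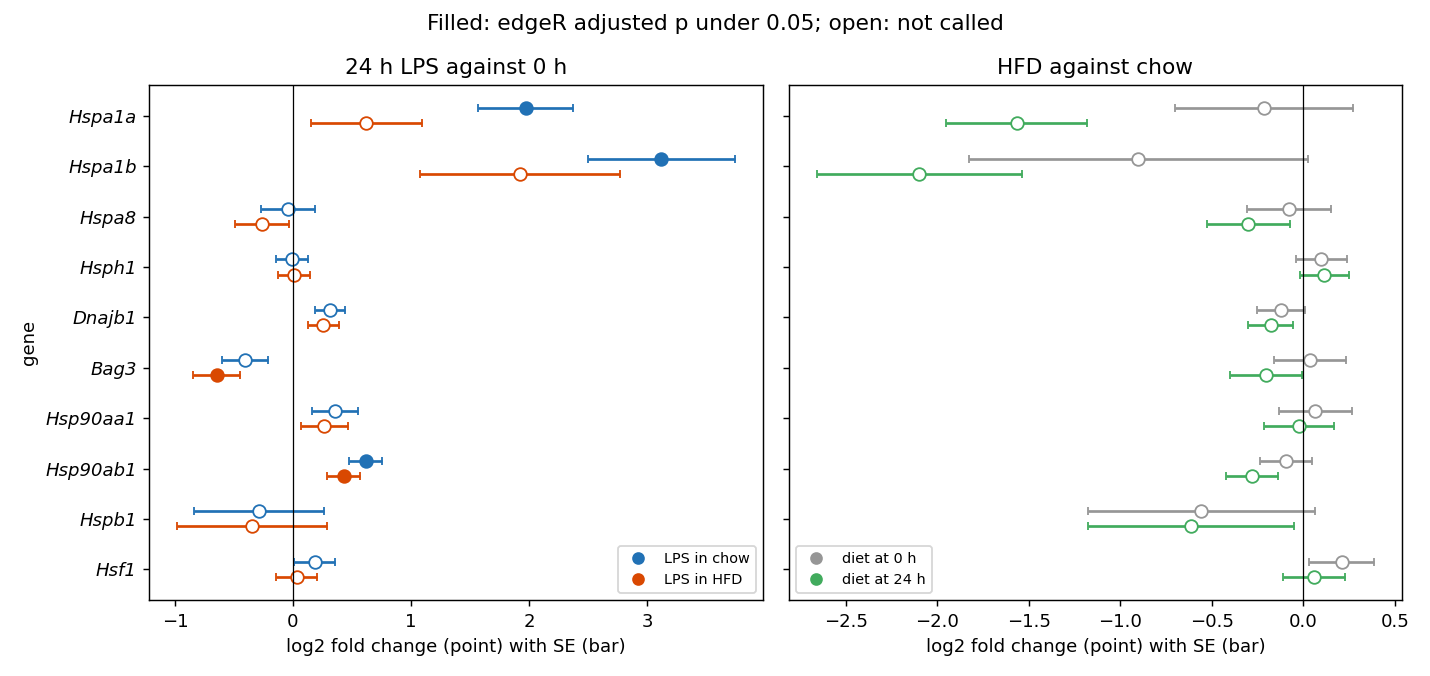
Log2 fold changes of the heat shock genes with their SE from the edgeR fit, for LPS within each diet (left) and for HFD against chow at each time (right), with called genes filled. Filled points are Hspa1a, Hspa1b and Hsp90ab1 in chow and Hsp90ab1 and Bag3 in HFD, and at 24 h Hspa1a and Hspa1b lie lowest in HFD at -1.57 and -2.10.

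Divided by transcript length, the levels of the set ran from 0.0371 CPM per kb (Hspa1b in HFD 0 h replicate 1) to 648 (Hsp90ab1 in chow 24 h replicate 3), which the plot per transcript length shows on a log axis. Hsp90ab1 came first in every group, with 361 ± 5.66 CPM per kb in chow 0 h, 553 ± 84.9 in chow 24 h, 338 ± 36.1 in HFD 0 h and 455 ± 59.1 in HFD 24 h (SD, n = 3). Alone it made up 63.5% to 79.6% of the members' summed level, and with Hspa8 82.4% to 91.0%. These shares depend on how reads of shared sequence were counted, which is not given. Of the 50-base words, 4.49% of those of Hsp90ab1 and 73.22% of those of Hspa8 recur in other genes. Hspa8 followed, with group means of 71.1 to 90.0 CPM per kb, and Bag3 came next with 23.5 to 36.9.

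These 3 genes did not overlap with their neighbours in the order of levels in any group. Below them Hsph1, Dnajb1, Hsp90aa1 and Hsf1 formed a band at group means of 10.1 to 14.4 CPM per kb, in which each neighbour overlapped the next in every group. Hspb1, Hspa1a and Hspa1b lay at the bottom, at means of 2.44 CPM per kb or less. In chow 0 h they stood in that order without overlap, at 1.55, 0.619 and 0.214, and in chow 24 h Hspa1a (2.44) and Hspa1b (1.88) stood above Hspb1 (1.28), with overlap between neighbours. The length of Hsf1 was that of another of its RefSeq transcripts.

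**Figure D4:**
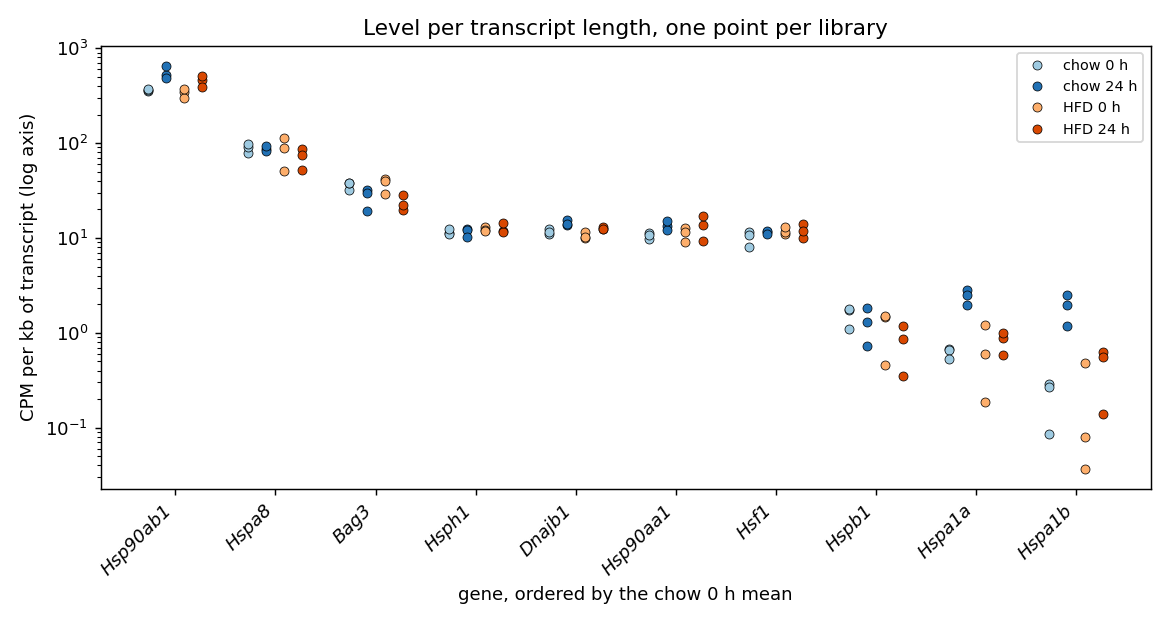
Level of each heat shock gene in CPM per kb of transcript (log axis), with 1 point per library, for genes ordered by their mean in chow 0 h. Hsp90ab1 leads in all 4 groups, 4 genes share a band near 10 CPM per kb, and Hspa1a and Hspa1b move up from the bottom in chow 24 h.

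Partner proteins of these chaperones were read from lists, beside the 26.6% of all genes called with LPS in chow and the 24.6% in HFD. Of 21 tested HSP70 partners and co-chaperones, 0 rose and 1 fell with LPS in each diet, Bag4 in chow (log2 fold change -0.51 ± 0.17, edgeR adjusted p = 0.0323) and the testis-type HSP70 gene Hspa2 in HFD (-0.87 ± 0.24, 0.0112). Dnaja1, another J-domain partner, was at 0.48 ± 0.19 in chow (0.075). Of 16 HSP90 co-chaperones, 2 rose in chow, Stip1, which hands clients from HSP70 to HSP90 (0.51 ± 0.16, 0.0255), and the immunophilin Fkbp4 (0.43 ± 0.15, 0.0367). In HFD Stip1 rose (0.55 ± 0.16, 0.0182) and Pih1d1, of the R2TP complex, fell (-0.66 ± 0.19, 0.0147).

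Of the 3 tested genes among the other heat shock factors and regulators of HSF1, and of 5 other small heat shock protein genes, 0 passed with LPS in either diet by edgeR, DESeq2 or limma-voom, and 0 had an unadjusted p under 0.05. The small heat shock gene Hspb8 was at 0.88 ± 0.51 in chow (edgeR adjusted p = 0.233).

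Among chaperones of other kinds, every called gene was higher after LPS, beside 13.7% of all genes called higher in chow and 12.7% in HFD. The TRiC chaperonin, a ring that folds actin and tubulin, had 4 of 8 subunits higher in chow and 3 in HFD, and 0 lower. Cct3 rose by 1.02 ± 0.13 in chow and 0.87 ± 0.14 in HFD, and Cct7 by 0.66 ± 0.12 and 0.62 ± 0.12. Of 14 chaperones of the endoplasmic reticulum 4 rose in chow and 7 in HFD, with 0 lower, among them Pdia4, a disulfide isomerase, at 0.84 ± 0.12 and 1.23 ± 0.13. Of 9 mitochondrial chaperones 2 rose in each diet, with mitochondrial HSP70, Hspa9, at 0.37 ± 0.11 and 0.38 ± 0.12.

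The median log2 fold changes in chow and HFD were -0.19 and -0.07 for HSP70 partners, 0.14 and 0.17 for HSP90 co-chaperones, 0.37 and 0.32 for TRiC, 0.21 and 0.15 for mitochondrial and 0.25 and 0.44 for endoplasmic reticulum chaperones. Whether the lists differ from each other was not tested. Between diets 0 genes of these lists were called by edgeR, DESeq2 or limma-voom at either time. At an unadjusted edgeR p under 0.05 there was 1 mitochondrial and 1 endoplasmic reticulum chaperone at 0 h, beside 778 of all 12641 genes. At 24 h there were 1 HSP70 partner and 2 small heat shock genes, beside 993 of all genes.

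**Figure D5:**
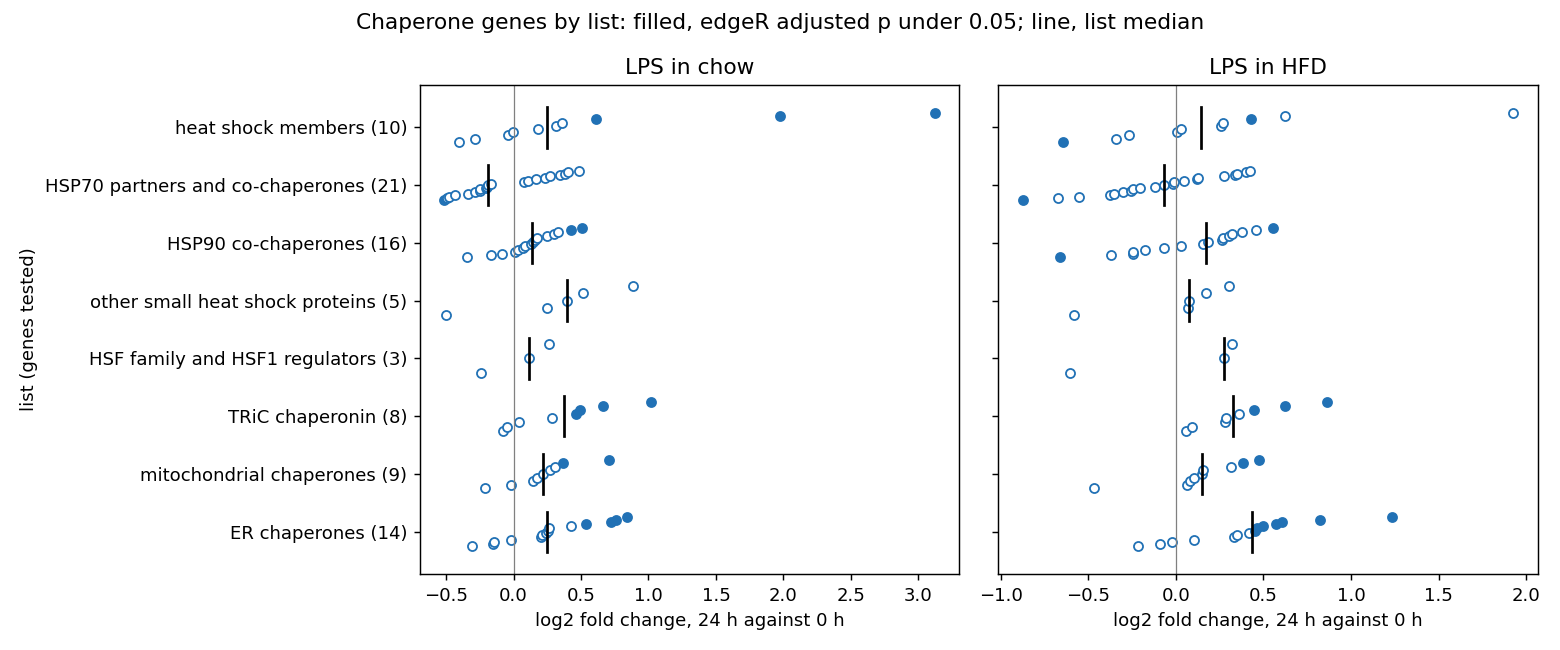
Log2 fold change of each tested gene with LPS in chow and in HFD, by chaperone list, with called genes filled and the list median as a line. The heat shock genes hold the highest values in chow, 1.97 and 3.12, while the TRiC list has its called genes between 0.46 and 1.02 in chow.

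Among 8260 genes with a mean of at least 10 CPM, the profiles most like each member's were found by the root mean square difference of log2 CPM over the 12 libraries, each centred on its own mean. For Hspa1a they were Tnc (0.40), Ncam1 (0.50) and Plekhn1 (0.52), and for Hspa1b Tnc (0.66), Clec4n (0.78) and Pmepa1 (0.81). The profiles of the abundant members had closer neighbours, with Dcaf13 (0.08), Gtf2f1 (0.09) and Pkp4 (0.10) for Hsp90ab1, Tmem43 (0.07), Copb2 (0.08) and a non-coding transcript, NR_040291 (0.08), for Dnajb1, and Gm20605 (0.10), Rnf44 (0.11) and Lrch4 (0.11) for Bag3.

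No member stood among the 3 nearest of another, although Hspa1a, Hspa1b and Hspb1 lie under 10 CPM and were not themselves candidates. The distance between Hspa1a and Hspa1b was 0.76. Hspa8 was nearest to Myadm, Mrpl34 and Rnf5, Hsph1 to Nlk, Fam160b1 and Zfp91, and Hsp90aa1 to Dzip3, Pgm2 and Ubash3b. Hspb1 was nearest to Nedd4, Nfib and Grb10, and Hsf1 to Stat5a, Sec16a and Foxk1. Within the set the closest profiles were those of Hsph1 and Hsf1 (0.20) and of Hsp90ab1 and Dnajb1 (0.21), and the farthest those of Hspa1b and Bag3 (1.61).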

How the data were processed

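RNA of the 12 libraries was extracted with a Qiagen kit and made into libraries with a NuGen kit, per the labels' protocols. The submitters' processing notes name CASAVA 1.8.2, the aligner STAR 2.5.2b and the build mm10. The deposited table holds raw counts for 35745 RefSeq transcripts. Read counter, annotation and use of strand are not given in sources used here. The transcript with the most counts on average stood for its gene, which left 24562 genes. Symbols came from RefSeq for 35440 rows and from GENCODE for 188, and 117 unnamed rows stayed in, holding 2.33% to 12.0% of a library.

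Counts were scaled by TMM, filtered by filterByExpr to 12641 genes and fitted in edgeR 4.0.16 under R 4.3.3 (robust quasi-likelihood, 4 group means over 12 libraries, Benjamini-Hochberg adjustment over all genes, called under 0.05). The SE is the log2 fold change, unsigned, divided by the root of F. The common coefficient of biological variation was 18.0%. DESeq2 1.42.0, limma 3.58.1 (voom), other scalings and filters, the lane tag, a replicate block, transcript sums and leaving out each library were alternatives. Intervals and floors cover counting error only. Counts of replicates differed by more than sampling noise (chi-square per degree of freedom 6.13 to 72.8).

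The members and lists were chosen with earlier results of these data known. All 10 members are named, and from each other list up to 4 genes with the smallest adjusted p, and the 3 most like profiles per member. Names of markers at 0, of Col1a1, Timd4, Ccr7 and Hsp25-ps1, and of Mamdc2 were added after their values were seen. So were those of Lyz2, Cd68, Gata6, Pdgfrb, Lrrn4, Upk3b and Krt8.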

Additional observations from a re-analysis of the deposited data

How the results depend on the processing

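No member's called value changed sign under any alternative. Of 1229 recomputed values of single members, 1145 kept direction and side of the threshold, 62 uncalled values crossed 0 or moved, 15 lost the call and 7 gained it. The number of members called with LPS in chow was 3, and 1 with the lane tag as a covariate, 4 with DESeq2 (Dnajb1 added), only the groups compared (Hsp90aa1 added) or transcript sums (Dnajb1 added), and 2 of 9 with Hspa1a and Hspa1b summed. With LPS in HFD it was 2, and 1 with upper-quartile factors, with only the groups compared or with the lane tag, and 0 to 2 on leaving out 1 library. For diet at 24 h it was 0, and 1 with DESeq2. Over all genes, LPS in chow fell from 3357 to 1509 with the lane tag. Diet at 0 h (11 genes) gave 23 without a filter, 66 with DESeq2, 18 with the block, 7 without chow 0 h replicate 2 and 25 without HFD 24 h replicate 2. Diet at 24 h (1 gene) gave 10 without a filter, 41 with DESeq2, 11 with limma-voom, 0 with only the groups compared or the lane tag, and 0 to 4 on leaving out 1 library. The difference between LPS responses (0 genes) gave 3 without a filter, 9 with DESeq2, 4 with the block, 2 with the marker covariate and up to 3 on leaving out 1 library. The cause was not tested. Label numbers were not taken as pairing in the main fit. Same-numbered libraries correlated at 0.0293 to 0.346 in their deviations from group means, with 3 of 6 pairs over 0.1. Differently numbered libraries correlated at -0.307 to 0.109 in chow and at -0.185 to 0.0906 in HFD. Chow and HFD libraries, which share no label number, correlated at -0.139 to 0.125 at 0 h and at -0.304 to 0.244 at 24 h. Deviations from a mean of 3 libraries sum to 0, so high same-number values lower the others. These values cannot decide whether 0 h and 24 h libraries are paired, and the labels do not state it. The replicate block used label numbers for LPS and the difference between responses, and the members called were 3, 2 and 0, as without it. For diet it used replicate numbers, which are not stated to pair chow with HFD libraries, and 0 members were called at either time. Depth limits Hspa1b, Hspa1a and Hspb1 most, above all in HFD 0 h, where Hspa1b has 6 counts in all.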
